A study of Arabidopsis thaliana with 18 samples.

Results

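LHCB4.1 and LHCB4.2 (loci AT5G01530 and AT3G08940) and RCA (locus AT2G39730) are nuclear genes of photosynthesis in Arabidopsis thaliana. They were chosen by name through the gene table of the array platform. This choice, and that of the gene lists below, was made with earlier results of these data known. LHCB4.3, the third LHCB4 gene, is given beside them. LHCB4.1, LHCB4.2 and RCA are 3 of 13286 loci that this gene table pairs with a probe set of their own, among 22746 probe sets that were not controls. LHCB4.1 lies on chromosome 5 at 208866 to 210548, LHCB4.2 on chromosome 3 at 2717557 to 2718923, and RCA on chromosome 2 at 16570746 to 16573692, as RefSeq places the gene models in TAIR10.1. Each gene was read by 1 probe set that lists no other gene: 251082_at for LHCB4.1, 258993_at for LHCB4.2 and 245061_at for RCA.

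Light-harvesting antenna proteins bind chlorophyll and pass excitation energy to the reaction centres of the thylakoid membrane. LHCB4 proteins, also called CP29, are monomeric minor antenna proteins that sit between the photosystem II core and the trimeric LHCII antenna. Rubisco activase, the product of RCA, uses ATP to free the active sites of Rubisco from inhibitory sugar phosphates, so that carbon fixation by the Calvin cycle can go on in the light. Antenna and carbon fixation proteins hold much of the nitrogen of a leaf, and transcripts for them are commonly low in nitrogen-starved shoots.

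The study measured transcripts on ATH1 arrays (1 colour, 1 array a sample) in whole seedlings of ecotype Col-0 that were 9 days old, in 6 groups of 3 arrays. It asked how nitrogen supply and the transcription factors LBD37 and LBD38, members of the LOB-domain family, alter gene expression. The nitrogen-replete groups, kept for 9 days on full nutrition with 4 mM KNO3, were wild type, a T-DNA-insertion mutant of LBD37 and a T-DNA-insertion mutant of LBD38. The depleted groups had 7 days of full nutrition followed by 2 days with no nitrogen added, and were wild type, an overexpresser of LBD37 and an overexpresser of LBD38. The labels give no promoter, line or clone for the overexpressers or mutants, and they describe the growth both as liquid culture and as plates before a transfer. The overexpressers were measured only in depletion and the mutants only in replete medium.

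The replicates are called biological, with no word on whether they were separate cultures, so a p-value here measures the spread between these samples. In whole seedlings, fewer cells of a type and less RNA per cell cannot be told apart. The probe table used here pairs no probe set with LBD37 or LBD38, so the genotypes were not checked by their target genes. The nitrogen label of wild type was checked with NRT2.5, a high-affinity nitrate transporter that is induced by nitrogen starvation. It rose by 3.90 on the log2 scale in depleted wild type, from 6.106 ± 0.109 to 10.003 ± 0.093 (SD, n = 3). In depletion it read 7.103 ± 0.434 in the LBD37 and 6.739 ± 0.457 in the LBD38 overexpresser (SD, n = 3 each). Their differences were -2.90 and -3.26 from depleted wild type, and 1.00 and 0.63 from replete wild type. This gene therefore does not settle the nitrogen label of the overexpressers. Array medians ran from 6.87 to 7.06. The lowest median and the narrowest interquartile range, 2.89 against 3.06 to 3.28 in the other arrays, belonged to replicate 3 of the LBD37 overexpresser, and the comparisons of that overexpresser are given with and without it. The likeness over all 18 arrays is given with it only. Replicate 2 of the LBD37 overexpresser had the same lowest correlation within its group as replicate 3 (r = 0.9881). The list counts, ratios, marker sums and correlations were not computed without replicate 2 alone.

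All values below are log2 signals, so a difference of 1 is a doubling, and levels are compared only within a gene, because the brightness of a probe set depends on its probes. A change passed the test when its p from limma, adjusted over all 22746 probe sets of that comparison, was under 0.05. Comparisons that share arrays are not independent. The replete wild-type arrays serve depletion and both mutants, and the depleted wild-type arrays serve depletion and both overexpressers.

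The levels of all 3 genes divided by nitrogen supply. LHCB4.1 lay between 12.93 and 13.15 in the 9 replete arrays and between 12.01 and 12.62 in the 9 depleted arrays. LHCB4.2 lay between 11.32 and 11.81 in the replete arrays and between 10.02 and 11.14 in the depleted ones. RCA lay between 13.47 and 13.63 in the replete arrays and between 12.75 and 13.32 in the depleted ones. For none of the 3 genes did the replete and depleted arrays overlap, as was so for 23.0% of all probe sets over the same arrays.

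**Figure D1:**
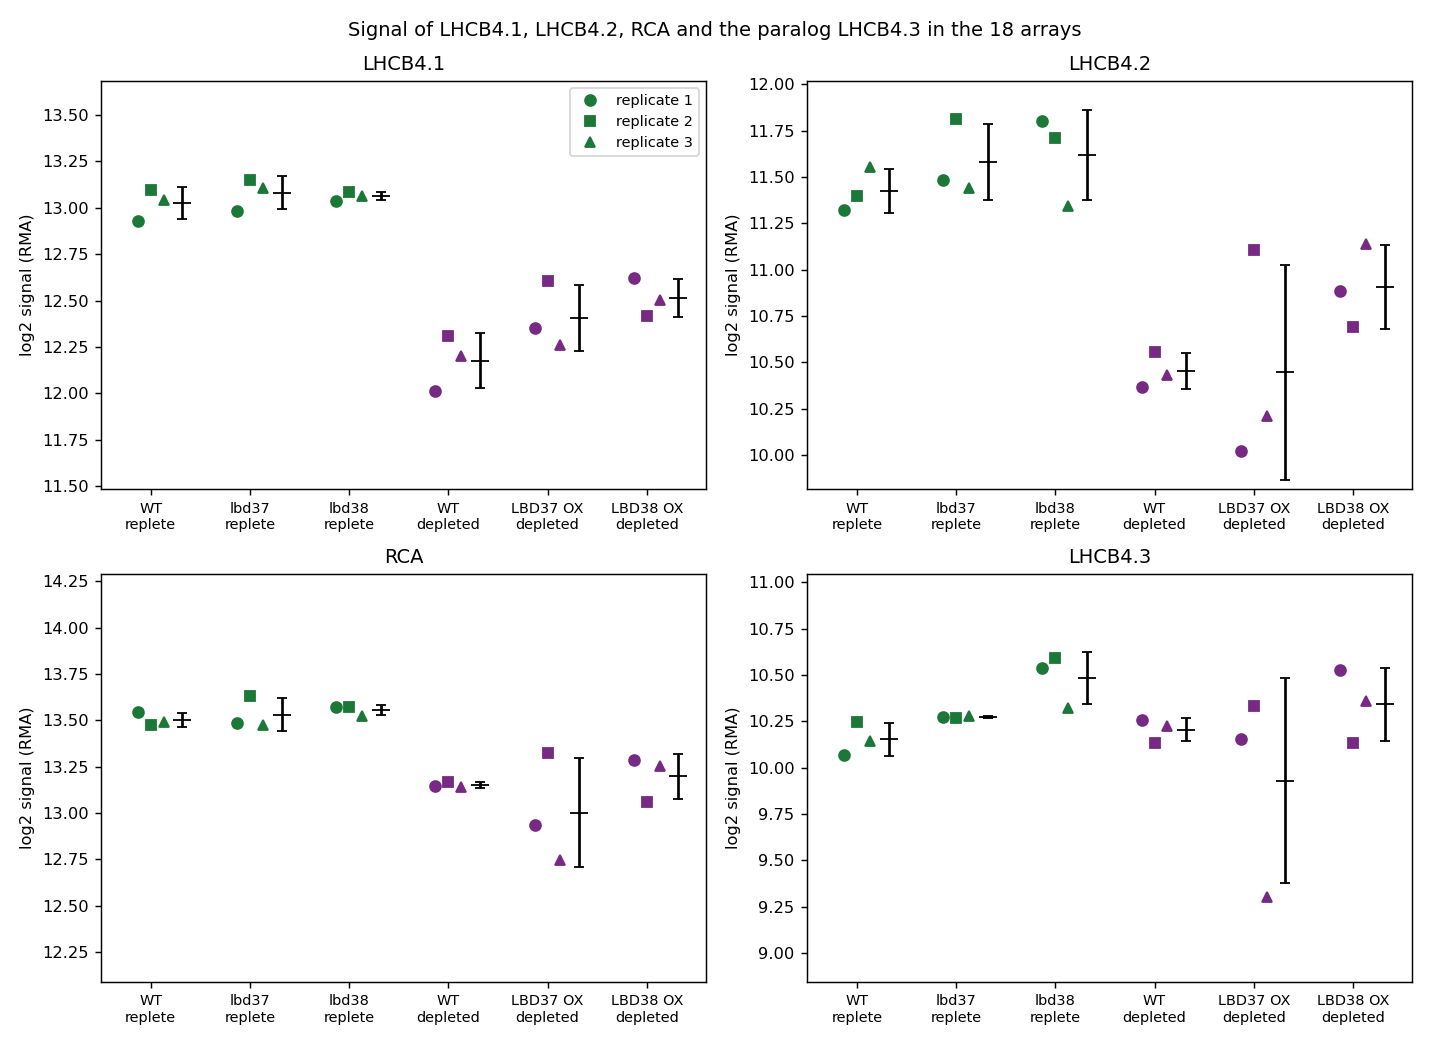
Log2 signal of LHCB4.1, LHCB4.2, RCA and LHCB4.3 in each of the 18 arrays, by group. Green points are replete arrays, purple points are depleted arrays, the shapes are replicate numbers, and the black marks are the group mean ± SD (n = 3). The first 3 genes separate by nitrogen supply, while LHCB4.3 lies between 10.07 and 10.59 in replete and between 9.30 and 10.53 in depleted arrays.

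The order of the 6 group means was close among the genes. For LHCB4.1 it ran from the lbd37 mutant (13.08 ± 0.09), the lbd38 mutant (13.06 ± 0.02) and wild type (13.02 ± 0.09) in replete medium to the LBD38 overexpresser (12.52 ± 0.10), the LBD37 overexpresser (12.41 ± 0.18) and wild type (12.18 ± 0.15) in depletion (SD, n = 3 each). Only 1 pair of neighbours in that order, replete wild type and the LBD38 overexpresser, had arrays that did not overlap. For LHCB4.2 the lbd38 mutant came first (11.62 ± 0.24), then the lbd37 mutant (11.58 ± 0.20), replete wild type (11.42 ± 0.12), the LBD38 overexpresser (10.90 ± 0.23), depleted wild type (10.45 ± 0.10) and the LBD37 overexpresser (10.45 ± 0.58). Here the arrays of the LBD38 overexpresser were clear both of replete wild type above and of depleted wild type below, and the other neighbours overlapped. RCA had the same order as LHCB4.2: the lbd38 mutant (13.56 ± 0.03), the lbd37 mutant (13.53 ± 0.09), replete wild type (13.50 ± 0.04), the LBD38 overexpresser (13.20 ± 0.12), depleted wild type (13.15 ± 0.01) and the LBD37 overexpresser (13.003 ± 0.294). Replete wild type and the LBD38 overexpresser were its only neighbours that did not overlap.

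In wild type, the signal of both LHCB4 genes and of RCA was lower in depleted seedlings: LHCB4.1 fell by 44.5%, LHCB4.2 fell by 49.0% and RCA fell by 21.6%. The log2 signal of LHCB4.1 was 12.93, 13.10 and 13.04 in the replete arrays and 12.01, 12.31 and 12.20 in the depleted arrays. Every depleted array was below every replete one, and the gene fell by 0.85 on the log2 scale (SE 0.10, 95% confidence interval -1.05 to -0.65, limma adjusted p = 5.76e-07), which is 1.80-fold. LHCB4.2, whose protein is the other widely expressed form of CP29, read 11.32, 11.40 and 11.56 in replete and 10.37, 10.56 and 10.43 in depleted arrays. Its groups did not overlap, and it fell by 0.97 (SE 0.20, interval -1.40 to -0.54, limma adjusted p = 0.000576), or 1.96-fold. RCA read 13.54, 13.47 and 13.49 in replete and 13.14, 13.17 and 13.14 in depleted arrays. Its groups did not overlap either, and it fell by 0.35 (SE 0.11, interval -0.58 to -0.13, limma adjusted p = 0.0105), or 1.28-fold. All 3 genes thus passed the test in the same direction, in a comparison where 50.2% of all probe sets passed it, 26.6% of them all were lower, and 58.3% had groups that did not overlap. The median change over all probe sets was -0.07, and 13.3% of probe sets had a larger absolute change than LHCB4.1, 10.6% a larger one than LHCB4.2 and 37.6% a larger one than RCA. RCA was among the brightest probe sets, between 0.04 and 1.18 log2 units below the brightest one of its array. LHCB4.1 was also bright, between 0.52 and 1.80 below it. Whether the change of either gene is narrowed at the top of the scale was not tested.

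Of 15 photosystem II and 6 photosystem I antenna genes listed, only the 3 LHCB4 genes were measured. LHCB4.3, the third gene of the family, encodes a shorter form of the protein. It alone of the 3 did not pass the test in depletion. It read 10.07, 10.25 and 10.14 in replete wild type and 10.26, 10.13 and 10.22 in depleted wild type. These groups overlapped, and the change was 0.05 (interval -0.32 to 0.42, limma adjusted p = 0.824). In none of the 9 comparisons did LHCB4.3 pass the test. Within each array, the log2 ratio of LHCB4.1 to LHCB4.3 changed by -0.90 from replete to depleted wild type, and that of LHCB4.2 to LHCB4.3 changed by -1.02. Both ratios were lower in all 3 depleted arrays than in any replete one. Each had p = 0.1 in a two-sided exact permutation test, the smallest p that 3 arrays against 3 allow, and an adjusted p of 0.286 over the 20 ratio tests made. LHCB4.3 was set beside the other members after its values had been seen.

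Ratios within an array compare the size of the fall between genes. The within-array ratio of LHCB4.1 to RCA changed by -0.50 in depletion, and the ratio of LHCB4.2 to RCA by -0.62. In both cases the depleted and replete arrays did not overlap (exact permutation p = 0.1, adjusted p = 0.286, n = 3 a group). The ratio of LHCB4.1 to LHCB4.2 changed by 0.12, with overlapping arrays (exact permutation p = 0.2, adjusted p = 0.5). With this number of arrays no ratio could pass the test, so unequal falls of the 3 genes were not shown. Every ratio that holds LHCB4.1 or RCA shares the limit at the top of the scale given above.

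**Figure D2:**
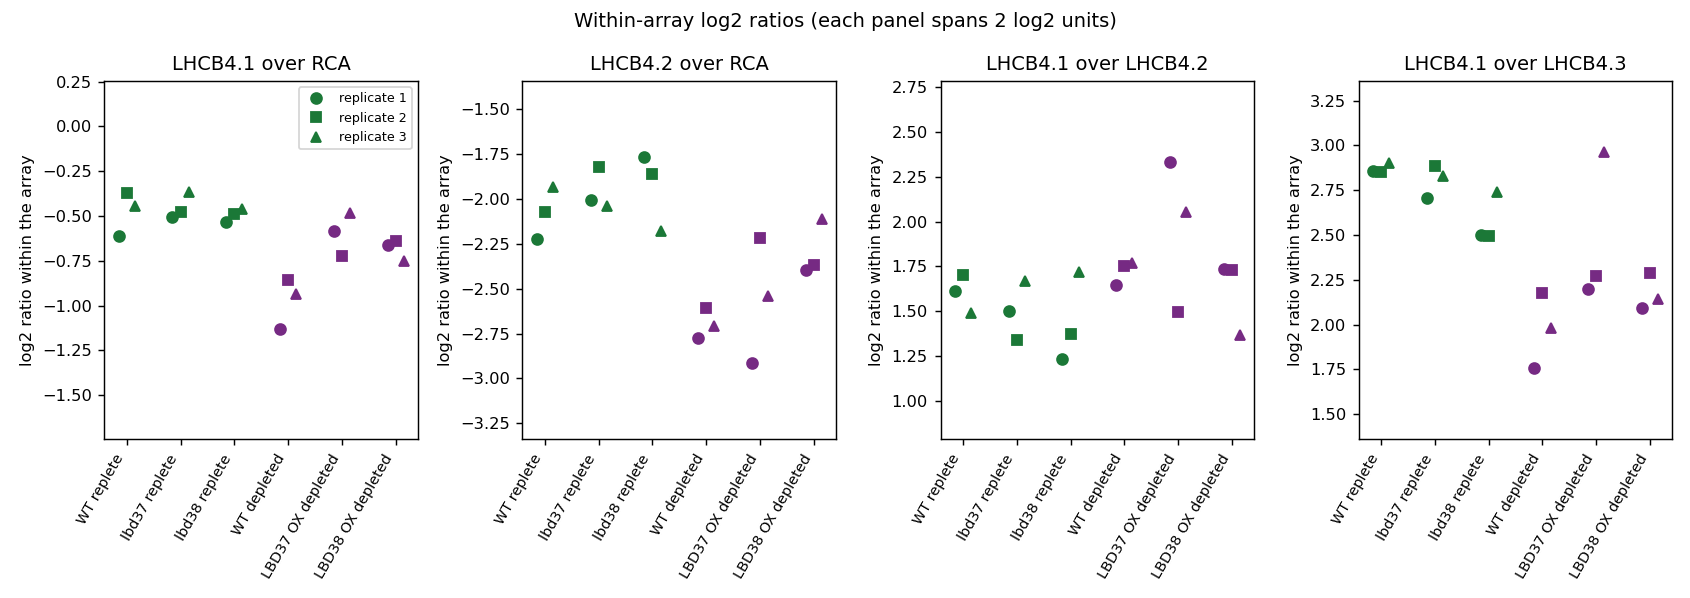
Log2 ratio between 2 genes within each array, by group; green is replete, purple is depleted, and each panel spans 2 log2 units. The height of a panel depends on the probes of both genes, so only differences between groups can be read: the ratios of both LHCB4 genes to RCA are lower in depleted than in replete wild type (changes of -0.50 and -0.62), with no overlap.

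Overexpression of LBD38 went with a higher LHCB4.1 level in depleted seedlings, and with no change of RCA that passed the test. LHCB4.1 read 12.62, 12.42 and 12.50 in the LBD38 overexpresser, against 12.01, 12.31 and 12.20 in depleted wild type. The arrays did not overlap, and the gene rose by 0.34 (SE 0.10, interval 0.14 to 0.54, limma adjusted p = 0.0171), or 1.27-fold. That call was lost without replicate 1 of depleted wild type (0.26, adjusted p = 0.111) and without replicate 1 of the overexpresser (0.29, adjusted p = 0.0999). LHCB4.2 read 10.89, 10.69 and 11.14 in the overexpresser and 10.37, 10.56 and 10.43 in wild type. These arrays did not overlap either, but its difference of 0.45 had the interval 0.03 to 0.88 and an adjusted p of 0.152 in limma, which did not pass. It passed when the fit held only these 2 groups (adjusted p = 0.0248) and with array weights (0.54, adjusted p = 0.0331). RCA read 13.28, 13.06 and 13.25 in the overexpresser and 13.14, 13.17 and 13.14 in wild type. Its groups overlapped, and the difference was 0.05 (interval -0.18 to 0.27, limma adjusted p = 0.861). So 1 of the 3 genes was called, where 17.9% of all probe sets were called and 9.26% were called higher. Of the 3 genes 2 had groups that did not overlap, against 35.5% of all probe sets. The ratios of LHCB4.1 and of LHCB4.2 to RCA were higher than in wild type by 0.29 and 0.40, with no overlap (exact permutation p = 0.1 and adjusted p = 0.286 for each, n = 3 a group).

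In the LBD37 overexpresser none of the 3 genes passed the test, and the spread between its arrays was wide. LHCB4.1 read 12.35, 12.60 and 12.26, overlapping depleted wild type at its edge, and differed from it by 0.23 (interval 0.03 to 0.43, limma adjusted p = 0.1005). When replicate 3, the one that stands apart, was left out, that difference was 0.30 and passed (adjusted p = 0.0424), as it did with the median of every array set to 0 (0.27, adjusted p = 0.0353). These were the only 2 of 14 alternatives in which it passed. Without replicate 2 it was 0.13 (limma adjusted p = 0.329), and without replicate 1 of depleted wild type it was 0.15 (limma adjusted p = 0.359). LHCB4.2 read 10.02, 11.11 and 10.21, so that replicate 2 was above every depleted wild-type array and the other 2 arrays were below them all. Its mean difference of -0.01 (interval -0.43 to 0.42, limma adjusted p = 0.987) therefore describes no single array well. RCA read 12.94, 13.32 and 12.75, again with replicate 2 above and the others below depleted wild type, and differed by -0.15 (interval -0.37 to 0.08, limma adjusted p = 0.356). Both differences turned on single arrays. Without replicate 3, that of LHCB4.2 was 0.11 (adjusted p = 0.798) and that of RCA was -0.020 (adjusted p = 0.924). Without replicate 2, that of LHCB4.2 was -0.34 (adjusted p = 0.112), and that of RCA was -0.31 and passed (adjusted p = 0.0180). In this comparison 18.5% of all probe sets were called, 7.21% were called higher, and 31.5% had groups that did not overlap, while none of the 3 genes was called or free of overlap. The ratio of LHCB4.1 to RCA was 0.38 higher than in wild type, with no overlap (exact permutation p = 0.1, adjusted p = 0.286, n = 3 a group), and it was the only one of the 3 ratios without overlap here. Without replicate 3 it was 0.32 higher, still with no overlap.

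Between the 2 overexpressers no difference passed. LHCB4.1 differed by -0.11 (interval -0.31 to 0.09, limma adjusted p = 0.594), LHCB4.2 by -0.46 (interval -0.89 to -0.03, limma adjusted p = 0.338) and RCA by -0.20 (interval -0.42 to 0.03, limma adjusted p = 0.409), each as LBD37 minus LBD38. All 3 values were below 0, and all 3 pairs of groups overlapped. Of all probe sets, 0.0484% were called. One array decided that count. Without replicate 2 of the LBD37 overexpresser, 741 probe sets passed in place of 11, LHCB4.2 among them at -0.79 (adjusted p = 0.0156) and RCA at -0.36 (adjusted p = 0.0355). Without replicate 3 the differences of LHCB4.1, LHCB4.2 and RCA were -0.037, -0.34 and -0.068, and none passed (adjusted p = 0.984, 0.887 and 0.960).

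Both overexpressers in depletion were still below replete wild type in all 3 genes. For the LBD37 overexpresser the differences were -0.62 for LHCB4.1 (interval -0.82 to -0.42, limma adjusted p = 3.65e-05), -0.98 for LHCB4.2 (interval -1.41 to -0.55, limma adjusted p = 0.000718) and -0.50 for RCA (interval -0.72 to -0.27, limma adjusted p = 0.000951). Here 39.4% of all probe sets passed, and 22.1% were lower. Without replicate 3 of that overexpresser they were -0.55, -0.86 and -0.37, and all 3 passed (adjusted p = 0.000231, 0.00478 and 0.00545). For the LBD38 overexpresser they were -0.51 for LHCB4.1 (interval -0.71 to -0.31, limma adjusted p = 0.000287), -0.52 for LHCB4.2 (interval -0.95 to -0.09, limma adjusted p = 0.0493) and -0.30 for RCA (interval -0.53 to -0.08, limma adjusted p = 0.0303), where 40.6% of all probe sets passed and 20.5% were lower. None of these 6 differences had overlapping arrays, as was so for 42.6% of all probe sets with the LBD37 and 51.7% with the LBD38 overexpresser. The last 2 calls were near the threshold: that of LHCB4.2 was lost without any 1 of the arrays compared except replicate 3 of the overexpresser, and that of RCA without replicate 2 of the overexpresser or any 1 of the replete wild-type arrays, with values from -0.41 to -0.64 and from -0.23 to -0.35 over the arrays left out in turn. Genotype and nitrogen supply differ together in these comparisons and cannot be told apart.

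**Figure D3:**
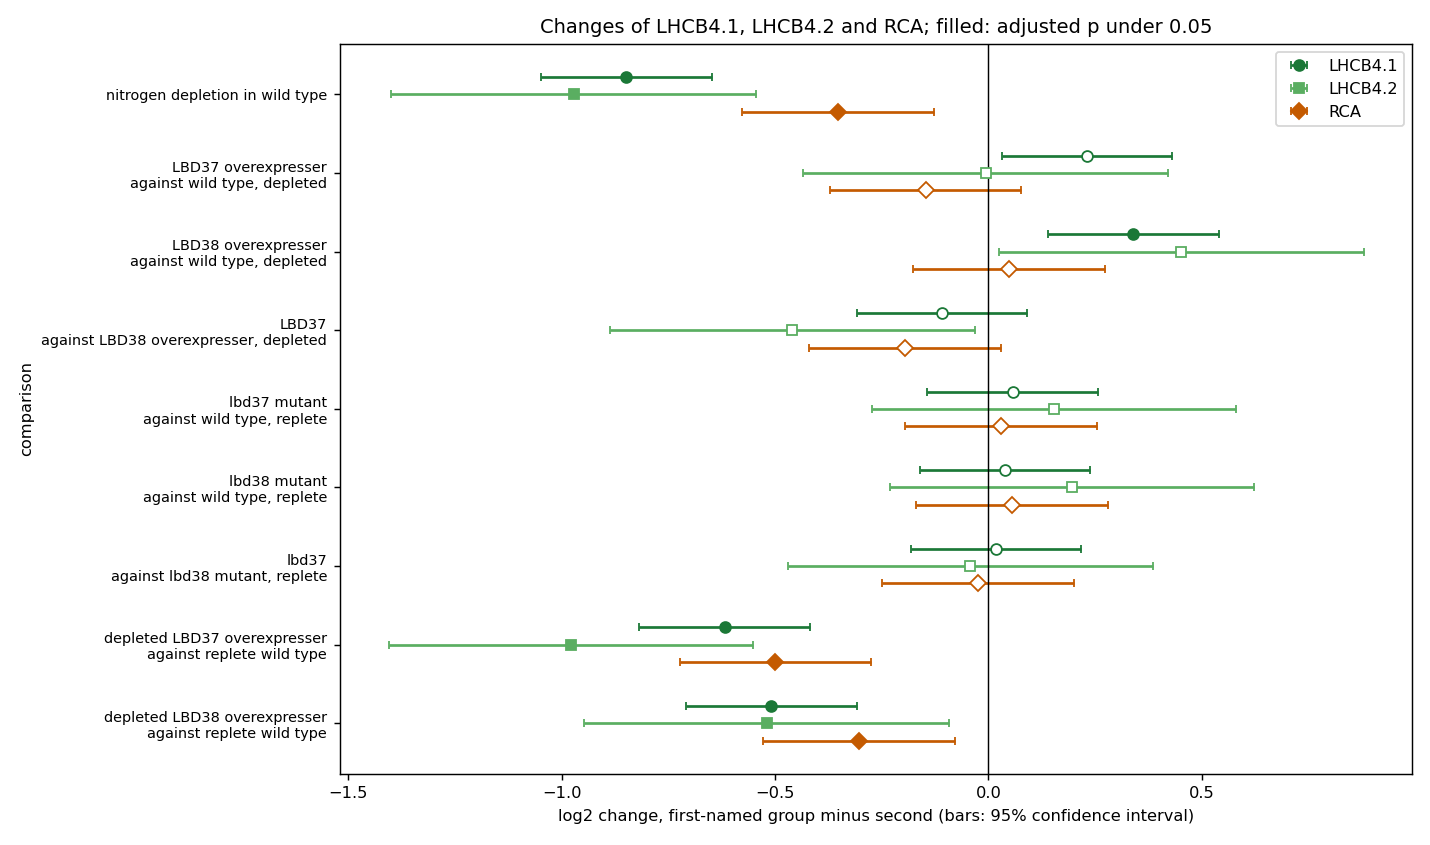
Log2 change of LHCB4.1, LHCB4.2 and RCA in the 9 comparisons, with 95% confidence intervals from limma; filled symbols passed the test at an adjusted p under 0.05. All 3 genes are lower in each comparison of a depleted group with replete wild type, LHCB4.1 alone is called between overexpresser and wild type (0.34 for LBD38), and the mutants lie close to 0.

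Loss of LBD37 or LBD38 in replete seedlings was not followed by a change that passed in any of the 3 genes. LHCB4.1 read 12.98, 13.15 and 13.11 in the lbd37 mutant and 13.04, 13.09 and 13.07 in the lbd38 mutant, both overlapping wild type. Its differences from wild type were 0.06 (interval -0.14 to 0.26) and 0.04 (interval -0.16 to 0.24), with limma adjusted p of 0.951 and 0.928. LHCB4.2 read 11.48, 11.81 and 11.44 in lbd37 and 11.80, 11.71 and 11.35 in lbd38. It differed from wild type by 0.15 (interval -0.27 to 0.58, limma adjusted p = 0.932) and 0.20 (interval -0.23 to 0.62, limma adjusted p = 0.787). RCA read 13.49, 13.63 and 13.47 in lbd37 and 13.57, 13.57 and 13.53 in lbd38. It differed by 0.03 (interval -0.20 to 0.25, limma adjusted p = 0.978) and 0.05 (interval -0.17 to 0.28, limma adjusted p = 0.909). Of all probe sets, 0.189% passed in lbd37 and 1.19% in lbd38. Between the mutants, where 2.6% of probe sets passed, the 3 genes differed by 0.02, -0.04 and -0.03, and none was called. The intervals allow changes of up to 0.26 for LHCB4.1, 0.62 for LHCB4.2 and 0.28 for RCA above wild type, so a small effect of either mutation on these genes was not detectable with this number of arrays.

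The other nuclear genes of photosynthesis that could be measured gave a like picture in depletion. The probe table used here pairs 21 of 126 listed genes with a probe set of their own, the 3 genes above and 18 others. It lists no gene for 8730 probe sets, so a gene counted as unmeasured may still have probes on the array. Of those 18, 17 were lower in depleted wild type and none was higher, where 26.6% of all probe sets were lower. LHCB4.3 was the exception among the 18. The median change of the 18 was -0.97, beside -0.07 over all probe sets. RCA, with -0.35, had the smallest fall of the 20 genes of the list that passed.

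Among the structural genes, PSBW and PSBY, small subunits of photosystem II, fell by 0.53 and 0.95 on the log2 scale. PSAE1 and PSAN, a stromal and a lumenal subunit of photosystem I, fell by 0.86 and 1.14, and ATPC1, the gamma subunit of the chloroplast ATP synthase, fell by 0.85. In the Calvin cycle, PRK, the phosphoribulokinase that makes the substrate of Rubisco, fell by 0.70 (limma adjusted p = 0.00116) and SBPASE, a phosphatase of the regeneration phase, by 0.99 (limma adjusted p = 5.44e-06). Of all probe sets, 26.6% were lower in this comparison. All 3 measured photorespiration genes fell, among them GLYK, the glycerate kinase, by 1.37. All 6 measured genes of chlorophyll synthesis fell, with the median at -1.48. They were led by CHLI2, a subunit of magnesium chelatase (-2.19), PORB, a light-dependent protochlorophyllide oxidoreductase (-2.03), CHLM, a methyltransferase of the magnesium branch (-1.69), and HEMB1, an aminolevulinate dehydratase (-1.26). NOL, a chlorophyll b reductase of chlorophyll breakdown, fell by 0.40.

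In the LBD38 overexpresser, 7 of the 18 other genes were higher than in depleted wild type and 1, PORB, was lower, where 9.26% of all probe sets were higher and 8.66% lower. The median difference of the 18 was 0.38, beside 0.01 over all probe sets. The genes that rose were PSBY (0.59), PSAE1 (0.44), ATPC1 (0.34), CHLP, which makes the phytyl tail of chlorophyll (0.67), CHLI2 (0.56), CHLM (0.50) and NOL (0.45). PORB fell by 0.70. RCA and both other Calvin cycle genes measured were not called (SBPASE 0.37, limma adjusted p = 0.0667; PRK 0.26, limma adjusted p = 0.324). In the LBD37 overexpresser, 2 of the 18 were higher, PSBY (0.38) and CHLP (0.51), and PORB was lower at -0.59, with a median of 0.09, where 7.21% of all probe sets were higher and 11.3% lower. Over all 21 genes, the number called higher there was 2, and it was 6 without replicate 3 of that overexpresser and 5 after either other scaling of the arrays. In both mutants none of the 21 genes passed against wild type in limma, where 1 gene in each had an unadjusted p under 0.05, and LHCB4.1, LHCB4.2 and RCA had unadjusted p-values from 0.348 to 0.788. Between the mutants 1 of the 21 was called, NOL, which was 0.52 higher in lbd37 than in lbd38 (8.76 ± 0.03 against 8.24 ± 0.19, SD, n = 3, limma adjusted p = 0.0078).

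**Figure D4:**
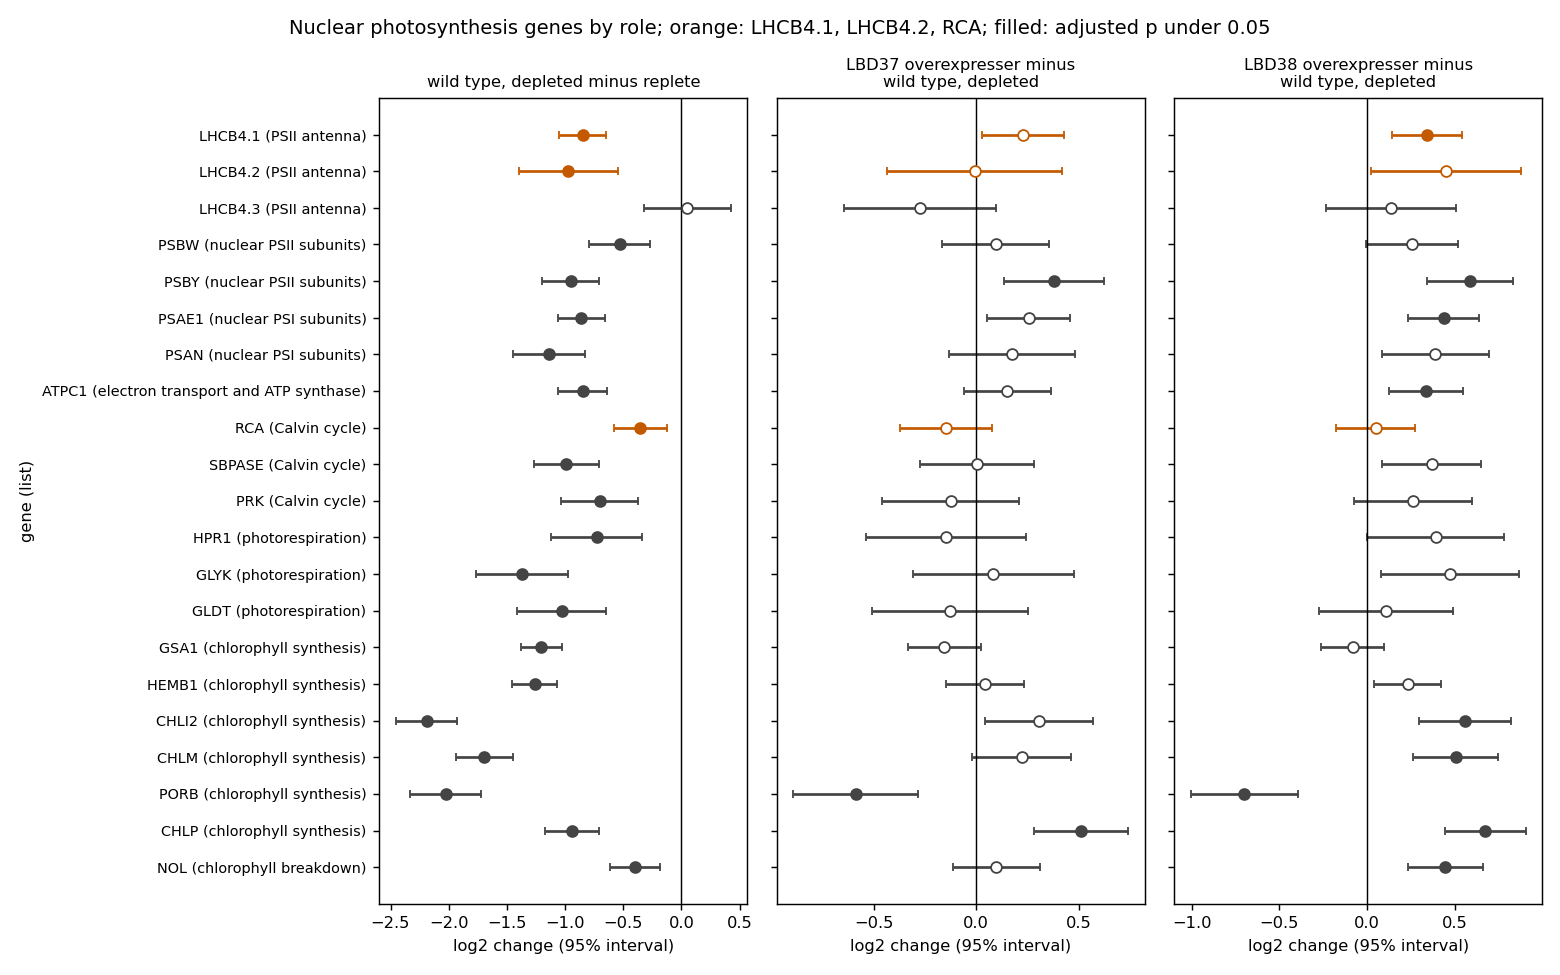
Log2 change with its 95% confidence interval for the 21 measured nuclear genes of photosynthesis, by role, in wild-type depletion and in both overexpressers against depleted wild type; orange marks LHCB4.1, LHCB4.2 and RCA, and filled points passed the test. In depletion 20 of the 21 genes are lower, beside 26.6% of all probe sets. In the LBD38 overexpresser 8 are higher and 1, PORB, is lower, beside 9.26% and 8.66% of all probe sets.

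The plastid-encoded genes of photosynthesis, which supply the reaction-centre cores that LHCB4 attaches to and the large subunit of Rubisco that RCA acts on, were set beside these. Of 23 such genes, 22 were lower in depleted wild type, where 26.6% of all probe sets were, with a median of -0.83, led by PSBB, a core antenna protein of photosystem II (-1.56). PSBA, the D1 protein, was the one that did not pass (-0.19). RBCL, the large subunit of Rubisco, fell by 0.93, while RCA fell by 0.35. In the LBD38 overexpresser 17 of the 23 were higher, beside 9.26% of all probe sets, with a median of 0.54. In the LBD37 overexpresser 9 were higher, beside 7.21% of all probe sets, with a median of 0.41. That count was 13 without replicate 3 of the overexpresser and 15 after quantile normalization was repeated. RBCL was called in neither (0.14 for LBD38 and -0.27 for LBD37), as was RCA. None of the 23 passed in either mutant against wild type in limma, where 1 in each had an unadjusted p under 0.05.

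Markers of organs also moved in depletion and in both overexpressers, not all in the same direction. None passed the test in either mutant against wild type. In depletion 23.5% of all probe sets were called higher and 26.6% lower. Of the 6 leaf markers listed, 4 were measured, and in depleted wild type 3 fell (SPCH, a regulator of the stomatal lineage, at -1.41, YAB3 at -0.81 and MUTE at -0.26) and FMA rose by 0.24. Their summed linear signal lay between 589 and 657 in replete and between 351 and 436 in depleted wild type. It lay between 501 and 571 in the LBD37 overexpresser, between 499 and 592 in the LBD38 overexpresser, between 589 and 663 in lbd37 and between 468 and 553 in lbd38. Of the 6 root markers listed, 4 were measured, and in depleted wild type 3 rose and PYK10, a beta-glucosidase of root ER bodies, fell by 1.27. That gene set the sum, which lay between 6964 and 7291 in replete and between 3971 and 4684 in depleted wild type. The root sums lay between 3738 and 4014 in the LBD37 overexpresser, between 3822 and 4250 in the LBD38 overexpresser, between 6512 and 7041 in lbd37 and between 6997 and 7917 in lbd38. In the LBD37 overexpresser 2 leaf markers rose and 2 root markers, EXPA7 and EXPA18, expansins of root hairs, fell. Of all probe sets, 7.21% were called higher and 11.3% lower there. Without replicate 3 of that overexpresser, the leaf count was again 2, 1 root marker fell, and the root sums lay between 3942 and 4014. In the LBD38 overexpresser, where 9.26% of all probe sets were called higher and 8.66% lower, SPCH rose by 1.46. No other marker of either list passed there. The lowest log2 signal of any marker in any array was 5.23, and normalized log2 signals hold no zero by which a marker could be called absent. The part of organ proportions in the LHCB4 and RCA results was not tested.

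Over the 18 arrays the 3 genes followed each other, with Pearson's r of 0.92 between LHCB4.1 and LHCB4.2, 0.88 between LHCB4.1 and RCA, and 0.94 between LHCB4.2 and RCA. These values span the 2 nitrogen regimes and are only a description. Within a regime, 6 relations were computed over 9 arrays each. The exact permutations ran over all 9 arrays, so differences between genotypes enter their p-values. The r with group means removed was not tested. In the depleted arrays LHCB4.2 and RCA had r = 0.81 (exact permutation p = 0.00638, adjusted p = 0.0383) and rho = 0.82 (exact permutation p = 0.0108, adjusted p = 0.0646). Without the 2 arrays farthest from the median of LHCB4.2, r was 0.74, and with group means removed it was 0.86. LHCB4.1 and LHCB4.2 had r = 0.71 in the depleted arrays (exact permutation p = 0.0334, adjusted p = 0.0728) and rho = 0.72 (exact permutation p = 0.0369, adjusted p = 0.111), with r = 0.78 without the 2 farthest arrays and 0.72 with group means removed. LHCB4.1 and RCA had r = 0.46 there (exact permutation p = 0.212, adjusted p = 0.289) and rho = 0.60 (exact permutation p = 0.0968, adjusted p = 0.181), with r = 0.61 without the 2 farthest and 0.80 with group means removed. Without replicate 3 of the LBD37 overexpresser, r over the 8 other depleted arrays was 0.87 for LHCB4.2 and RCA, 0.70 for LHCB4.1 and LHCB4.2, and 0.49 for LHCB4.1 and RCA. In the replete arrays, where the genes varied little, r was 0.44 for LHCB4.1 and LHCB4.2, 0.23 for LHCB4.1 and RCA and 0.71 for LHCB4.2 and RCA, with rho of 0.33, 0.02 and 0.57. Their adjusted exact permutation p for r were 0.289, 0.545 and 0.0728, those for rho were 0.462, 0.982 and 0.181, and without the 2 farthest arrays r was -0.20, -0.06 and 0.31. With group means removed it was 0.35, 0.14 and 0.64. A shared high or low reading of a whole array enters all of these values.

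Among 13433 probe sets with 1 listed gene, those most like LHCB4.1 over the 18 arrays were PSB27, a lumenal protein of photosystem II assembly and repair (r = 0.98), then AT1G44920, AT4G01310, AT5G16030 and AT3G15520, all at r = 0.98. Those most like LHCB4.2 were AT1G51400 (r = 0.97), AT1G16080 (0.96), AOR (0.95), AT1G65230 (0.95) and PSAN (0.95). Those most like RCA were PRK (r = 0.97), AT5G62140 (0.97), NdhN, a subunit of the chloroplast NDH complex (0.97), AT4G30993 (0.96) and AT1G77090 (0.96). Each of these 15 was lower in depleted than in replete wild type, with changes from -0.70 for PRK to -2.11 for AT4G01310. They were picked over these same arrays for likeness to genes that divide by nitrogen supply, so this direction is no separate result.

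The most opposite patterns were those of AT3G28940, AT3G09010 and AT2G37110 for LHCB4.1 (each r = -0.97), of GTR2, AT1G51850 and AT5G61520 for LHCB4.2 (r = -0.92, -0.92 and -0.92), and of AT1G51850, AT3G46690 and AT2G27790 for RCA (r = -0.92, -0.92 and -0.92). After the group means were removed, AT1G68490 (r = 0.87), PSB27 (0.86) and the plastid gene petA (0.86) were most like LHCB4.1. AT1G21500 (r = 0.92), AT2G29290 (0.91) and AT1G71970 (0.89) were then most like LHCB4.2, and LrgB (r = 0.96), AT2G21960 (0.96) and AT1G16080 (0.95) most like RCA. The 18 other nuclear photosynthesis genes had a median r of 0.93 with LHCB4.1, 0.91 with LHCB4.2 and 0.88 with RCA, beside medians of 0.14, 0.07 and 0.06 over all probe sets ranked. For the 23 plastid-encoded genes the medians were 0.84, 0.76 and 0.66. The r values behind these medians span both nitrogen regimes. Of the 18 genes 17 fell in depletion, and of the 23 genes 22, so a high r is no separate result. LHCB4.3 was at 0.39, 0.52 and 0.64.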

How the data were processed

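Values were the deposited log2 signals of 18 ATH1 arrays, made by the authors with RMA (named in the submitters' processing notes, version not given in the sources used here). RMA corrects background, matches the distributions of the arrays and summarises the probes of a set, so a shift common to all genes is removed. Of 22810 probe sets, 64 controls were left out. Genes were named through GEO's platform annotation and RefSeq (TAIR10.1): 13513 probe sets list 1 gene, 503 several and 8730 none, and only those with 1 were named. All 18 arrays entered 1 limma 3.58.1 fit (R 4.3.3, lmFit and eBayes) with 6 group means and 9 contrasts, and p-values were adjusted by Benjamini-Hochberg within a contrast. The fit was tested on simulated data. Ratios within an array and correlations were tested by exact two-sided permutation (scipy 1.17.1). The members and gene lists were chosen with earlier results of these data known. Named genes were every member, the 5 most like and 3 most opposite probe sets of each, the 3 most like with group means removed, all antenna and Calvin cycle genes measured, and up to 4 genes a list that passed with the largest change, which could be followed in other comparisons. NRT2.5 was named as a check of the labels and PSBA and RBCL after their values were seen. The alternatives were another scaling, a filter on dim probe sets, other variance models, the replicate number as a block and each array left out in turn. The number of arrays limits the precision.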

Additional observations from a re-analysis of the deposited data

How the results depend on the processing

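Of the 27 differences of LHCB4.1, LHCB4.2 and RCA, 10 passed the test, and 7 of those passed it under each of the 14 alternatives run, wild-type depletion of all 3 genes among them. Over all alternatives, 341 of 378 values kept their direction and their side of the threshold. Whether arrays with the same replicate number were grown or handled together is not known. Correlations of same-numbered deviations from the group means ran from -0.25 to 0.26, which cannot settle it. With a replicate block the depletion values were -0.85, -0.97 and -0.35 (adjusted p = 7.62e-07, 0.000549 and 0.0115), and no call of the 3 genes changed.

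Differences that are not called and lie near 0 changed sign: LHCB4.2 in the LBD37 overexpresser at 0.075 after repeated quantile normalization and 0.037 after centring, RCA in lbd37 at -0.041 after quantile normalization, and LHCB4.1 between the mutants at -0.0097 with array weights. LHCB4.1 in the LBD37 overexpresser passed after centring (0.27). LHCB4.2 in the LBD38 overexpresser passed with only the groups compared (0.45) and with array weights (0.54). Depleted LBD38 overexpresser against replete wild type, LHCB4.2 missed the threshold after quantile normalization (-0.49), with a trend and robust variance (-0.52), with array weights (-0.44) and over probe sets with 1 gene only (-0.52). The causes were not tested.

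With each array left out in turn, LHCB4.1 ranged from 0.13 to 0.30 in the LBD37 and from 0.26 to 0.41 in the LBD38 overexpresser, LHCB4.2 from -0.34 to 0.21 and RCA from -0.31 to -0.020 in the LBD37 overexpresser. Between the overexpressers LHCB4.2 ranged from -0.79 to -0.25 and RCA from -0.36 to -0.068. RCA in lbd37 ranged from -0.022 to 0.058 and LHCB4.1 in lbd38 from -0.0080 to 0.076. Between the mutants the ranges were -0.018 to 0.067 for LHCB4.1, -0.18 to 0.049 for LHCB4.2 and -0.076 to 0.0035 for RCA. Depleted LBD38 overexpresser against replete wild type, LHCB4.2 ranged from -0.64 to -0.41 and RCA from -0.35 to -0.23.

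No other alternative than leaving out 1 array was run for the ratios within an array, which centring cannot change. The number of probe sets called moved by over 1.5 times with only the groups compared (2067 in place of 4203 for the LBD37 overexpresser, 7 in place of 11 between overexpressers, 68 in place of 43 for lbd37 and 1239 in place of 591 between mutants), with array weights (33, 76 and 1882 for the last 3 of these) and over probe sets with 1 gene only, of which fewer were tested (6212, 2182, 2040, 7, 25, 111, 272, 4710 and 4942 over the 9 comparisons). The split of higher and lower calls in the LBD37 overexpresser was 1639 to 2564, and it was 2116 to 2130 after quantile normalization and 2241 to 2195 after centring. With each array left out in turn the lowest count was 2736 for the LBD37 and 2603 for the LBD38 overexpresser, and the counts fell as low as 11 in lbd37, 120 in lbd38 and 292 between mutants. With every probe set that lists a gene, 1 probe set of the nuclear photosynthesis list was called higher in depletion, in place of 0. The depleted LBD38 overexpresser against replete wild type gave the same count. The only gene of that list to gain a probe set was HPR1, of photorespiration, and the gained one lists several genes. The probe set of HPR1 alone fell by 0.73 in depletion, so the added call does not show a rise of a photosynthesis gene. Leaving replicate 3 of the LBD37 overexpresser out of the list counts, ratios, marker sums and correlations was chosen after seeing the data. The same was not done for replicate 2 alone.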
